A study of Homo sapiens with 60 samples.

Results

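The ethanol extracts of Menthae Herba and Saposhnikoviae Radix were compared at 500 µg/mL in A549 cells, a human epithelial line established from a lung carcinoma. The libraries were chosen by their titles, extract name with high dose, which gave 3 libraries of Menthae Herba and 3 of Saposhnikoviae Radix, 6 of the 60 in the series. All 6 were labelled with a time of 24 h and carry library number 12, which they share with the 3 libraries of each extract at 100 µg/mL (medium dose) and at 20 µg/mL (low dose). The series tested single herbs and herbal formulas at up to 3 doses, and its text says that samples with too little RNA were left out. The 3 vehicle libraries received DMSO only and carry a library number of their own, D1, while the titles of all groups used here begin with the same batch letter, D. The labels and the series text give different shares of DMSO for the vehicle. No gene was edited in any group. The labels do not say that replicates were separate cultures, so the p-values rest on library-to-library spread that may be only technical.

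Menthae Herba is the aerial part of mint, and Saposhnikoviae Radix is the root of Saposhnikovia divaricata. Both are used in East Asian herbal medicine. Cells answer amino acid shortage, unfolded protein in the endoplasmic reticulum (ER) and other stresses through kinases that phosphorylate the translation factor eIF2alpha. Bulk protein synthesis then slows while the transcription factor ATF4 is translated, and ATF4 binds the C/EBP-ATF response element of genes for amino acid synthesis, amino acid import, tRNA charging and cell death. A549 cells also make mucins, fibrinogen, complement and a rich extracellular matrix, all of which pass through the ER to the cell surface.

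Messenger RNA was sequenced from total RNA, and each gene's level is given as CPM, its count scaled to the normalised size of its library. The 6 libraries held between 24516122 and 29432348 expected counts. The epithelial markers KRT8, KRT18, KRT19, EPCAM and CDH1 were all detected and summed to 4280.0 to 4586 CPM (of the plain library total) in the Menthae libraries and to 5950.0 to 6968 CPM in the Saposhnikoviae libraries. Of 5 leukocyte markers, PTPRC and CD3E were at 0 in all 6 libraries, and the list summed to 5.20 to 6.62 CPM with Menthae and 7.85 to 13.0 CPM with Saposhnikoviae, nearly all of it CD68. Of 5 fibroblast markers, COL1A2 and DCN did not exceed 0.0374 CPM in any library, and the list summed to 35.4 to 36.2 and 36.2 to 44.8 CPM, nearly all of it COL1A1. The 4 endothelial markers summed to at most 0.392 CPM. The part of these marker levels in the results was not tested. In bulk RNA, fewer cells of a type and less RNA per cell cannot be told apart.

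One library stands apart. Saposhnikoviae replicate 2 differed from replicates 1 and 3 of its group by 20.2 and 17.9 times the variance expected from counting alone (chi-square per degree of freedom), whereas the other pairs within the 2 groups stood at 2.86 to 6.15. The unnamed gene ENSG00000282955 was at 18.8 CPM in this library and at 0.0 to 2.88 CPM in the other 5. Over the series this gene splits the libraries into 38 with at most 3.50 CPM (class 1) and 22 with at least 17.6 CPM (class 2), and the vehicle libraries are all of class 2. What the class reflects was not tested. Results are given with all libraries and in many places also from class 1 libraries alone, a fit without the class 2 libraries of any group, which removes Saposhnikoviae replicate 2 of these 6.

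At the high dose, 2975 of 18396 genes tested differed between the extracts at an adjusted p under 0.05 (edgeR quasi-likelihood F-test), which is 16.2% of genes. Of these, 1154 were higher with Menthae (6.27%) and 1821 were lower (9.9%). Counts of list members below are to be read against these shares. A difference of 2-fold or more was seen in 82 of the higher genes (0.446%) and in 191 of the lower genes (1.04%), and the median size among called genes was 0.40 on the log2 scale. Class 1 libraries alone gave 3749 genes (20.4%), 1594 higher (8.67%) and 2155 lower (11.7%); 2640 genes were called in the same direction in both fits, which is 88.7% of the first and 70.4% of the second, and 0 were called in opposite directions. Leaving out Saposhnikoviae replicate 2 alone gave 2115. All 3 Menthae libraries lay above all 3 Saposhnikoviae libraries in 18.4% of the genes tested and below them in 18.8%, called or not, against which each statement below on groups that did not overlap is to be read. For the 12 genes highest and the 12 lowest with Menthae the rule for naming itself required it, so there it is no result. All log2 fold changes below are Menthae minus Saposhnikoviae, with a standard error from the F-test.

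Fewer genes differed at the lower doses. At 20 µg/mL, edgeR called 0 of 18396 genes (0%), although 616 had an unadjusted p under 0.05, against 514 by DESeq2, which called 1, and edgeR with no filter on low counts called 116. At 100 µg/mL, 42 genes passed (0.228%), 10 higher (0.0544%) and 32 lower (0.174%) with Menthae. The change of the difference from the low to the high dose was itself tested, as an interaction term that uses no vehicle library. It passed for 1182 genes (6.43%), of which 349 moved up with Menthae relative to Saposhnikoviae (1.9%) and 833 moved down (4.53%). Class 1 libraries alone gave 1982 such genes.

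**Figure D1:**
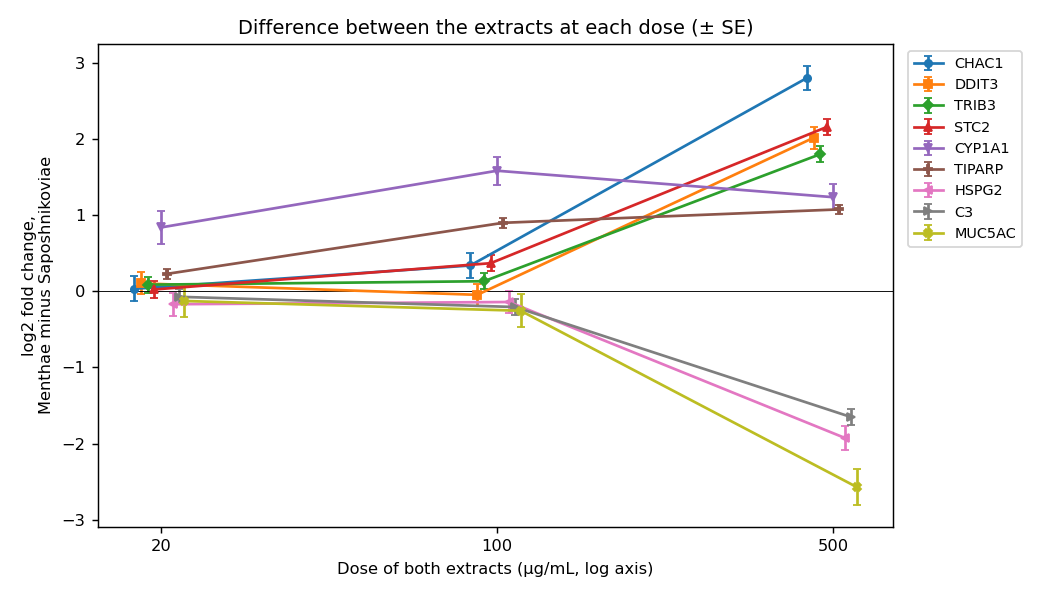
Log2 fold change between the extracts (vertical axis, Menthae minus Saposhnikoviae, ± SE) at 20, 100 and 500 µg/mL (log axis), 3 libraries per extract and dose. CHAC1, STC2, DDIT3 and TRIB3 separate upward and MUC5AC, HSPG2 and C3 downward at 500 µg/mL, while CYP1A1 and TIPARP are already apart at 100 µg/mL.

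Of the 12 genes highest with Menthae by the rule for naming, 6 were in the list of ATF4 and the integrated stress response: CHAC1, STC2, DDIT3, NIBAN1, TRIB3 and SESN2. In that list, 14 of 21 genes tested were higher, 0 were lower and 7 did not pass, with a median log2 fold change of 0.91 against 0.0044 over all genes tested. CHAC1 (ENSG00000128965, chr15:40952962-40956519 of GRCh38), an enzyme that degrades glutathione, had the highest fold change of the 12. It stood at 32.3, 20.6 and 20.1 CPM in the 3 Menthae libraries and at 3.26, 3.58 and 3.63 CPM in the 3 Saposhnikoviae libraries. Menthae replicate 1 lay above the other two Menthae libraries. The difference was 2.80 ± 0.16 on the log2 scale, 6.96-fold (edgeR adjusted p = 3.86e-17).

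The transcription factor DDIT3 (CHOP), which promotes cell death under lasting ER stress, was at 39.1, 23.0 and 23.4 CPM with Menthae and 7.97, 5.64 and 7.502 CPM with Saposhnikoviae. TRIB3, a pseudokinase that restrains ATF4 and AKT, was at 219, 193 and 189 CPM against 55.5, 59.9 and 56.9 CPM. SESN2, which reports leucine and stress to the mTORC1 kinase, was at 39.8, 28.9 and 28.9 CPM against 10.3, 10.7 and 9.86 CPM. In all 3 genes replicate 1 was the highest of the Menthae libraries. Their log2 fold changes were 2.02 ± 0.14, 1.80 ± 0.10 and 1.66 ± 0.09.

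The secreted glycoprotein hormone STC2 (chr5:173314713-173329503) was at 109.9, 77.7 and 69.9 CPM with Menthae and at 20.3, 17.6 and 19.7 CPM with Saposhnikoviae, 4.46-fold apart (log2 2.16 ± 0.11, edgeR adjusted p = 4.92e-19). NIBAN1, a cytosolic protein linked to the stress response, was at 19.3, 22.3 and 21.5 CPM against 5.92, 5.88 and 5.25 CPM. For NIBAN1, unlike STC2, Menthae replicate 1 was the lowest of its group. ATF4 itself differed less at the RNA level, 363, 351 and 351 CPM against 236, 257 and 228 CPM, or 0.56 ± 0.13 on the log2 scale (edgeR adjusted p = 0.00152). The 4 eIF2alpha kinases did not pass with all libraries: EIF2AK3 (PERK) stood at -0.01, EIF2AK4 (GCN2) at 0.10, EIF2AK1 at 0.00 and EIF2AK2 at 0.03 on the log2 scale. EIF2AK3 passed without Menthae replicate 1, at -0.21 (edgeR adjusted p = 0.021), and EIF2AK4 with offsets for transcript length and GC content, at 0.14 (edgeR adjusted p = 0.0447).

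**Figure D2:**
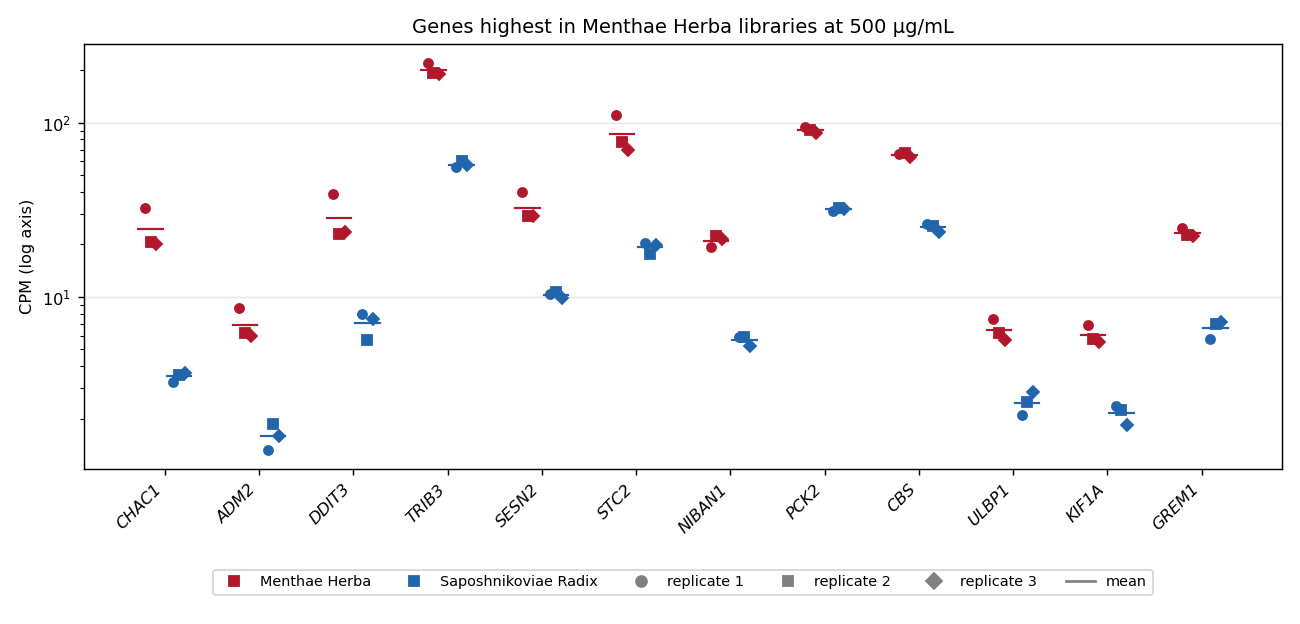
CPM (log axis) of the 12 genes with the highest log2 fold changes by the rule for naming, in each of the 3 Menthae and 3 Saposhnikoviae libraries at 500 µg/mL; symbols mark replicates and bars the group means. The rule took only genes without overlap between the groups. Menthae replicate 1 is the highest point for CHAC1, ADM2, DDIT3, STC2, SESN2, TRIB3, PCK2, ULBP1, KIF1A and GREM1.

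Enzymes that make serine, asparagine and one-carbon units were higher with Menthae in 10 of 14 genes, with 0 lower and a median of 0.78. ASNS, asparagine synthetase, was at 239.7, 238 and 235 CPM with Menthae and 104, 99.4 and 105 CPM with Saposhnikoviae. PHGDH, the first enzyme of serine synthesis, was at 142, 151 and 149 CPM against 63.6, 69.8 and 62.8 CPM. PSAT1, the next enzyme of that pathway, was at 579.8, 587 and 583 CPM against 277, 231 and 277 CPM. Spread within each group was small beside these gaps, and the log2 fold changes were 1.21 ± 0.06, 1.17 ± 0.07 and 1.16 ± 0.08. The mitochondrial folate enzyme ALDH1L2 stood at 1.17 ± 0.09 and the proline enzyme PYCR1 at 0.83 ± 0.06. CBS, which joins serine to homocysteine, stood at 1.39 ± 0.07, but reads of CBS can be split with its near-identical copy CBSL in this build, so its level is uncertain. Mitochondrial PCK2, which links amino acid carbon to glucose precursors and lies outside the list, was at 94.6, 90.5 and 87.2 CPM against 31.3, 32.1 and 31.8 CPM (1.52 ± 0.09).

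Amino acid transporters split. Of 11 tested, 6 were higher and 1 was lower, with a median of 0.28; class 1 libraries alone gave 7 higher and 3 lower. SLC1A4, a carrier of small neutral amino acids such as serine, was at 69.1, 59.9 and 58.0 CPM with Menthae and 31.1, 33.6 and 31.9 CPM with Saposhnikoviae, a log2 fold change of 0.95 ± 0.06. SLC38A2, a sodium-coupled importer of neutral amino acids, was at 527, 393 and 358 CPM against 270.3, 235 and 277 CPM (0.71 ± 0.14), and the glycine carrier SLC6A9 stood at 0.75 ± 0.11. SLC7A5, the large neutral amino acid exchanger LAT1, went the other way, with 2863, 2528 and 2449 CPM against 3884, 4556 and 3885 CPM. Its log2 fold change was -0.65 ± 0.07 (edgeR adjusted p = 6.5e-10), and the lowest Saposhnikoviae library lay above the highest Menthae library.

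Cytosolic aminoacyl-tRNA synthetases, which charge tRNAs with amino acids, were higher with Menthae in 13 of 20 genes and lower in 0, with a median of 0.31. The cysteine enzyme CARS1 was at 113, 108 and 107 CPM against 67.8, 68.1 and 67.8 CPM, and the glycine enzyme GARS1 was at 328, 336 and 345 CPM against 202, 219 and 206 CPM. They stood at 0.69 ± 0.06 and 0.69 ± 0.07 on the log2 scale, and neither pair of groups overlapped. Smaller differences were seen for MARS1 (0.57 ± 0.07), AARS1 (0.48 ± 0.05), YARS1 (0.46 ± 0.05) and IARS1 (0.40 ± 0.05).

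Promoters were searched for the C/EBP-ATF response element, spelled TGATGNAAN. Both strands of RefSeq promoter windows were used (GRCh38.p14, 250 bases before to 50 after each start). The lists of stress response, serine and one-carbon, transporter and tRNA synthetase genes hold known ATF4 targets beside other genes. They were chosen with earlier results of these data known, so a high share of the element there is partly built in. The part of ATF4 in the differences was not tested. The element was found for 1215 of 27305 genes (4.45%). It was found for 5 of 20 genes of the integrated stress response list that had a window, 2 of 10 serine and one-carbon genes, 5 of 10 amino acid transporters and 7 of 16 tRNA synthetases. Outside these 4 lists the share was highest in the BCL2 family, with 2 of 11 genes (18.2%). Most other lists held 0, among them the matrix list with 0 of 16. A match describes these letters and is not evidence of binding. The following stretches of up to 30 bases, 1 for each of 8 genes of the 4 lists, show the element as it occurs in them; capitals mark the match, which lies on the opposite strand in CHAC1, AARS1, GARS1 and IARS1.
CHAC1 (chr15:40953251-40953280, + strand): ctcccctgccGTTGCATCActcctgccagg
CEBPG (chr19:33374061-33374090, + strand): gcgcggcgtcTGATGCAACctgccggcaac
ASNS (chr7:97872457-97872486, - strand): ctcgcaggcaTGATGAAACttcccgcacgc
MTHFD1L (chr6:150866347-150866376, + strand): ccgccggctcTGATGCAATcgcgccgggcg
SLC1A5 (chr19:46784892-46784921, - strand): aggaagtggcTGATGCAAGctgtccagggt
AARS1 (chr16:70289675-70289704, - strand): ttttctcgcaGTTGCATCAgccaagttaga
GARS1 (chr7:30594834-30594863, + strand): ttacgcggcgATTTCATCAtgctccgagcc
IARS1 (chr9:92293698-92293721, - strand): ttttcagcgcGTTGCATCAcctcc
CEBPG and MTHFD1L were chosen for their match and not by the rule for naming. Distances are from the start of the RefSeq window, which need not be the start in the gene coordinates given above; for CHAC1 the stretch lies inside those. The match begins 210 bases before the RefSeq start of CHAC1, 188 before that of AARS1 and 68 before that of ASNS, and 14 bases before that of IARS1. In these data CEBPG, which encodes a partner of ATF4, stood at 0.91 ± 0.08, MTHFD1L, a mitochondrial folate enzyme, at 0.38 ± 0.06, and the glutamine carrier SLC1A5 at 0.37 ± 0.07 on the log2 scale.

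Genes of the ER folding machinery moved in both directions. Of 20 tested, 4 were higher and 11 were lower, with a median of -0.26. The ER chaperone HSP90B1 (GRP94) was at 639, 555 and 522 CPM with Menthae and at 895, 887 and 896 CPM with Saposhnikoviae, a log2 fold change of -0.64 ± 0.06. The lectin chaperones CANX and CALR stood at -0.53 ± 0.06 and -0.47 ± 0.06, the disulfide isomerase PDIA4 at -0.55 ± 0.06, and SEL1L, a scaffold of ER-associated degradation, at -0.73 ± 0.09. HSPA5 (BiP), the main ER chaperone, named here after its value was seen, did not pass and stood at 0.03.

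The 4 genes that were higher were HERPUD1, XBP1, DNAJB9 and ERN1. HERPUD1, part of the ER degradation complex, was at 72.2, 51.7 and 51.4 CPM against 32.8, 33.05 and 34.8 CPM (0.80 ± 0.09). XBP1, a transcription factor of the unfolded protein response, was at 96.1, 68.0 and 79.0 CPM against 51.8, 51.7 and 47.9 CPM (0.68 ± 0.10). The co-chaperone DNAJB9 stood at 0.58 ± 0.13 and the sensor ERN1 (IRE1) at 0.29 ± 0.10. Both lost the call without Menthae replicate 1, and ERN1 lost it also in class 1 libraries alone and without Saposhnikoviae replicate 1 or 2. The sensor ATF6 was lower, at -0.34 ± 0.06.

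Mucins are large secreted or membrane glycoproteins that coat the airway. Among airway mucins, 4 of 5 genes tested were lower and 0 were higher. MUC5AC (ENSG00000215182, chr11:1157953-1201138 of GRCh38), a gel-forming mucin, was at 49.9, 37.8 and 37.7 CPM with Menthae and 218, 308 and 221 CPM with Saposhnikoviae. The highest Menthae library lay far below the lowest Saposhnikoviae library, and the log2 fold change was -2.57 ± 0.23 (edgeR adjusted p = 1.27e-11). MUC5B, the other gel-forming mucin of the airway, was at 21.8, 17.6 and 17.4 CPM against 48.5, 74.2 and 43.2 CPM (-1.54 ± 0.26), and the membrane mucin MUC16 at 0.253, 0.251 and 0.27 CPM against 1.61, 3.10 and 1.75 CPM (-3.03 ± 0.35). In all 3 genes Saposhnikoviae replicate 2 was the highest library, and class 1 libraries alone gave -2.40, -1.28 and -2.69. MUC1, a membrane mucin, stood at -0.73 ± 0.25 but did not pass in class 1 libraries alone, nor without Menthae replicate 2 or 3 or Saposhnikoviae replicate 1 or 2.

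Extracellular matrix and basement membrane genes were lower with Menthae in 19 of 21 genes and higher in 0, with a median of -0.85; class 1 libraries alone also gave 19 lower. HSPG2, perlecan, the heparan sulfate proteoglycan of basement membranes (chr1:21822245-21937297), was at 86.9, 68.7 and 62.9 CPM against 240.5, 341 and 251 CPM, a log2 fold change of -1.93 ± 0.15. The laminin chain LAMC1 was at 208, 181 and 158 CPM against 409, 444 and 416 CPM (-1.21 ± 0.07), and the collagen IV chain COL4A2 was at 87.6, 77.5 and 65.9 CPM against 168, 169.9 and 175 CPM (-1.15 ± 0.07). No library of the 2 groups overlapped in these 3 genes, and Menthae replicate 1 was nearest to the Saposhnikoviae libraries in each. The laminin chain LAMB1 stood at -1.04 ± 0.07, the matrix protein SPARC at -1.17 ± 0.08, the protease inhibitor TIMP2 at -0.85 ± 0.06 and the collagen-modifying enzyme PLOD2 at -0.75 ± 0.06.

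Matrix genes outside that list were also among the 12 lowest. The microfibril protein FBN2 was at 50.9, 38.1 and 32.2 CPM against 142, 154 and 142 CPM (-1.85 ± 0.16), and FBN1 was at 9.50, 7.22 and 5.72 CPM against 21.9, 24.0 and 23.0 CPM (-1.62 ± 0.13). The basement membrane protein FRAS1 stood at -1.92 ± 0.12 and the collagen COL11A1 at -1.63 ± 0.11. The endocytic receptor LRP1 stood at -1.59 ± 0.13, the growth factor binding protein IGFBP5 at -1.58 ± 0.11 and the membrane protein SUSD2 at -1.72 ± 0.18. TPPP3, a tubulin-binding protein of the cytosol, was at 2.10, 2.15 and 1.47 CPM against 7.40, 7.73 and 7.17 CPM (-1.96 ± 0.18).

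**Figure D3:**
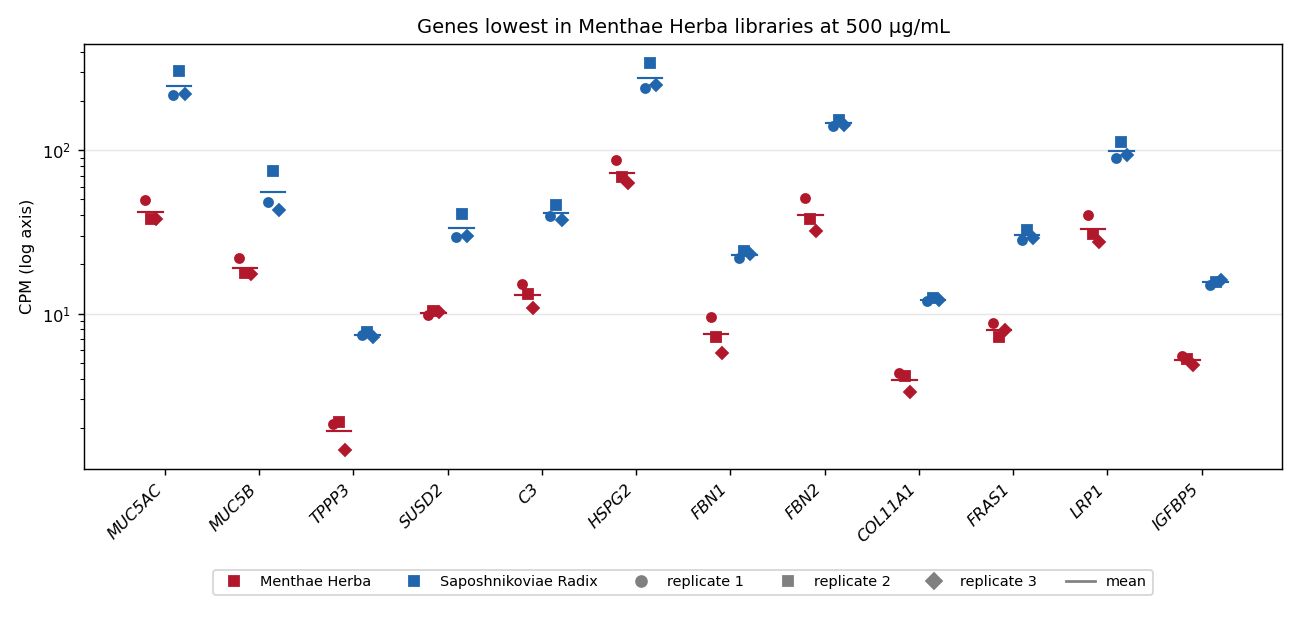
CPM (log axis) of the 12 genes with the lowest log2 fold changes by the rule for naming, in the same 6 libraries at 500 µg/mL; symbols mark replicates and bars the group means. The rule took only genes without overlap between the groups. Genes for which Saposhnikoviae replicate 2 is the highest point include MUC5AC, MUC5B, SUSD2, HSPG2, C3, FBN1, FBN2 and TPPP3.

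Fibrinogen and other acute phase proteins are made mainly by liver cells and also by A549 cells. In the fibrinogen and acute phase list, 7 of 11 genes were lower and 0 were higher, with a median of -0.86. The fibrinogen chain FGB was at 97.3, 90.5 and 90.2 CPM against 195, 200.2 and 192 CPM (-1.08 ± 0.08). The other two chains, FGA and FGG, stood at -0.94 ± 0.07 and -0.79 ± 0.07. Complement C3 was at 15.2, 13.1 and 10.8 CPM against 39.8, 46.1 and 37.4 CPM (-1.65 ± 0.11), and the copper carrier CP at 5.82, 4.17 and 3.86 CPM against 13.6, 14.0 and 11.3 CPM (-1.48 ± 0.14). The groups did not overlap in any of these 5 genes. STAT3, the factor that drives acute phase genes downstream of interleukin 6, was also lower, at -0.41 ± 0.04.

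Epithelial keratins and junction genes were lower in 8 of 18 and higher in 0, with a median of -0.22. CDH1, E-cadherin, was at 14.5, 13.8 and 13.2 CPM against 29.2, 32.4 and 28.2 CPM (-1.11 ± 0.08). KRT8, a keratin of simple epithelia, stood at -0.62 ± 0.10, and its partner KRT18 at -0.46 ± 0.09. Plakoglobin JUP was at 164, 174 and 173 CPM against 254, 352 and 251 CPM, with Saposhnikoviae replicate 2 well above the other libraries; its log2 fold change of -0.75 became -0.57 in class 1 libraries alone. DSP, desmoplakin (-0.36 ± 0.09), lost the call without Saposhnikoviae replicate 2.

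Genes of TGF-beta signalling and mesenchymal cells were lower too, 10 of 18 with 0 higher, at a median of -0.40. Class 1 libraries alone gave 11 lower and 2 higher. FN1, fibronectin, was at 489, 369 and 328 CPM against 1054, 1271 and 1063 CPM (-1.51 ± 0.10, edgeR adjusted p = 8.2e-16). SNAI1, a repressor of CDH1, was at 10.7, 13.8 and 14.2 CPM against 23.0, 32.5 and 25.0 CPM (-1.06 ± 0.20), and N-cadherin CDH2 stood at -0.68 ± 0.06. The receptor TGFBR2 stood at -0.71 ± 0.05 and the secreted target TGFBI at -0.75 ± 0.07. The epithelial and the mesenchymal cadherin were thus both lower with Menthae. The ligand TGFB1 did not pass with all libraries and stood at -0.39, but it passed in class 1 libraries alone, at -0.27 (edgeR adjusted p = 0.00392), and with no filter, the replicate block, only the 6 libraries compared or the offsets.

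**Figure D4:**
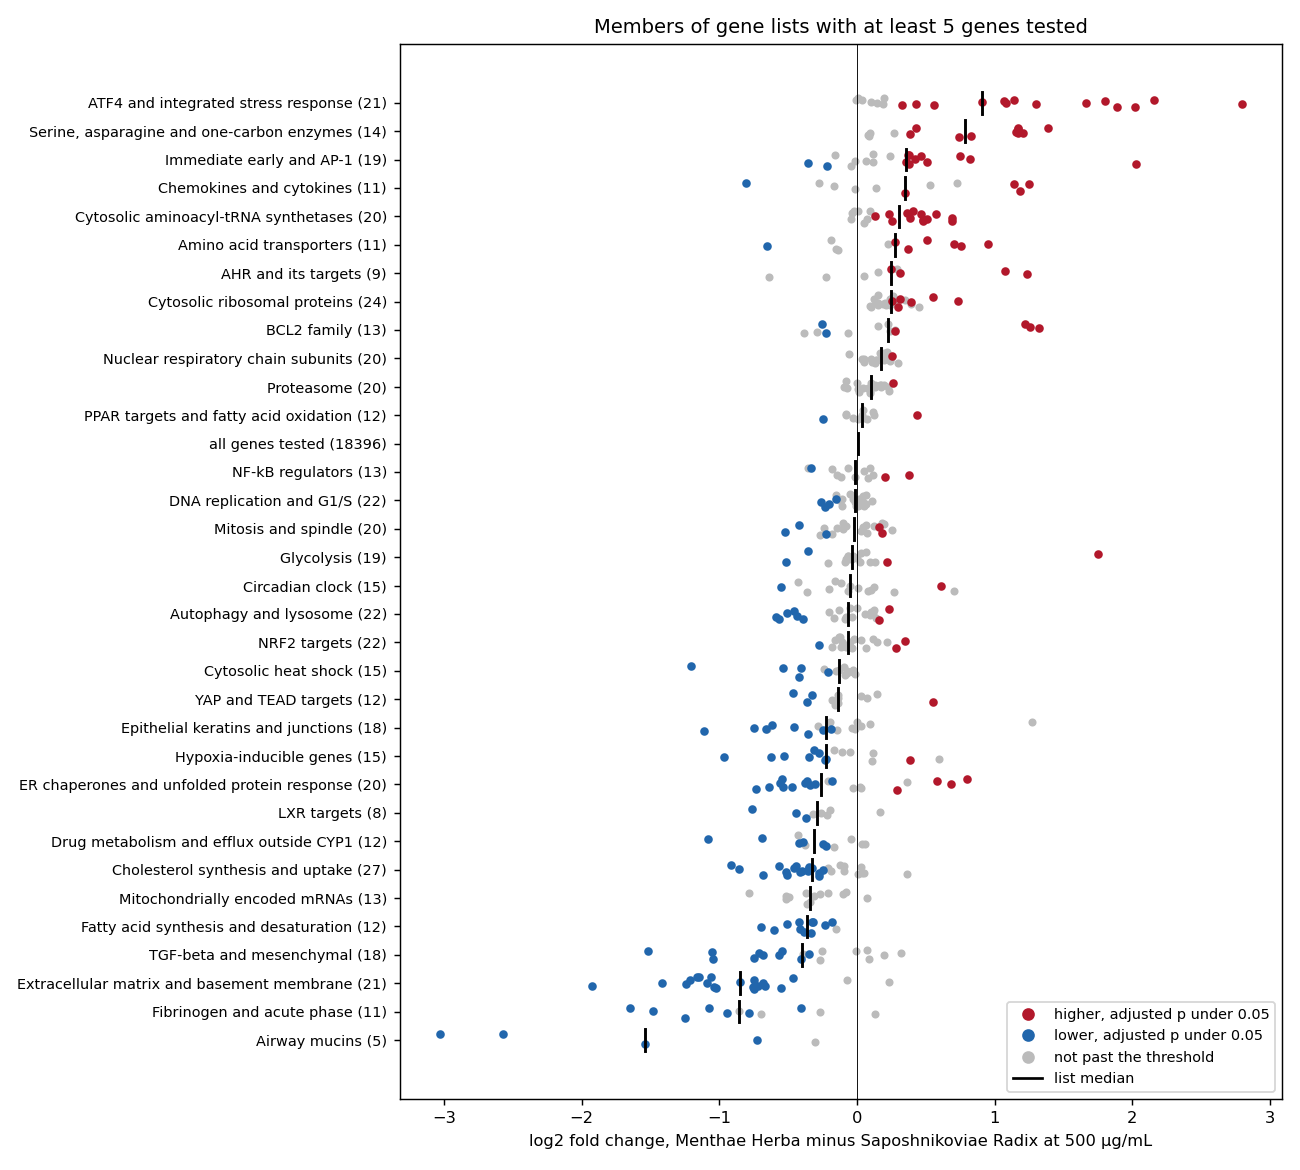
Log2 fold change at 500 µg/mL (horizontal axis, Menthae minus Saposhnikoviae) of every tested member of the lists shown, each with at least 5 tested genes, ordered by list median (black bar) with the number of genes in brackets. Stress response and serine lists lie to the right, and mucins, acute phase and matrix lists to the left of the median of all genes tested.

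The transcription factors SREBF1 and SREBF2 switch on lipid synthesis when membranes lack sterol. For cholesterol synthesis and uptake, 17 of 27 genes were lower and 0 were higher, with a median of -0.33. SQLE, an early sterol-specific enzyme, was at 88.2, 80.4 and 78.0 CPM against 116, 118 and 118 CPM (-0.51 ± 0.05, edgeR adjusted p = 7.43e-11). INSIG1, which holds the sterol-sensing complex in the ER, was at 20.6, 20.0 and 18.6 CPM against 30.9, 28.0 and 28.6 CPM (-0.56 ± 0.06), and the regulator SREBF2 stood at -0.35 ± 0.06. No library overlapped between the groups for any of these 3 genes. The sterol element TCACNCCAC was found in the promoter windows of 1 of 20 of these genes, SREBF2, and of 1.39% of all genes.

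Fatty acid synthesis and desaturation genes were lower in 11 of 12, with 0 higher and a median of -0.36; class 1 libraries alone gave 9 lower. SCD, the main fatty acid desaturase, was at 519.5, 484 and 465 CPM against 745, 816 and 815 CPM (-0.69 ± 0.06). FADS2, which desaturates polyunsaturated fatty acids, stood at -0.51 ± 0.05, and the elongases ELOVL5 and ELOVL6 at -0.41 ± 0.06 and -0.33 ± 0.05. For SCD the Saposhnikoviae libraries were themselves below their own low dose, at -0.58 on the log2 scale (edgeR adjusted p = 1.43e-08), and the Menthae libraries stood at -1.10. The difference between these 2 changes was -0.52 ± 0.08 (edgeR adjusted p = 1.26e-05).

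Among targets of the liver X receptors, 3 of 8 were lower and 0 higher; class 1 libraries alone gave 2 lower and 1 higher, NR1H2. ABCA1, the cholesterol exporter, stood at -0.76 ± 0.17 and LPCAT3, a phospholipid remodelling enzyme, at -0.44 ± 0.10, while the receptors NR1H3 (-0.26) and NR1H2 (0.17) did not pass with all libraries. For PPAR targets and fatty acid oxidation, 1 of 12 was higher, the lipid droplet protein PLIN2 (0.43 ± 0.08), and 1 was lower, the receptor PPARG (-0.25 ± 0.07). That is 8.33% each, against 6.27% higher and 9.9% lower over all genes tested. PPARG lost the call without Saposhnikoviae replicate 2.

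The aryl hydrocarbon receptor (AHR) is a ligand-activated transcription factor that switches on genes for handling foreign aromatic compounds. Of 9 AHR genes tested, 4 were higher with Menthae and 0 were lower, and at 100 µg/mL 4 had already passed. Each extract also raised some of them over its own low dose, 4 with Menthae and 3 with Saposhnikoviae. CYP1A1, a cytochrome P450 that is the classic target of AHR, was at 12.1, 8.83 and 10.3 CPM against 4.67, 4.91 and 3.70 CPM (1.24 ± 0.17). Against its own low dose it was higher by 1.99 ± 0.18 with Menthae and by 1.59 ± 0.20 with Saposhnikoviae, and the difference between these changes did not pass (0.40 ± 0.28, edgeR adjusted p = 0.544). TIPARP, an AHR-induced enzyme that restrains the receptor, was at 144, 138 and 133 CPM against 64.4, 64.3 and 68.2 CPM (1.08 ± 0.06). Its change from the low to the high dose was 1.53 ± 0.06 with Menthae and 0.69 ± 0.06 with Saposhnikoviae, a difference that passed (0.85 ± 0.09, edgeR adjusted p = 2.98e-09).

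CYP1B1, the related monooxygenase, was at 240.5, 205 and 198 CPM against 181, 172 and 166 CPM (0.31 ± 0.08), a call that was lost without Menthae replicate 1. At 100 µg/mL the difference in CYP1B1 was 0.80 ± 0.08, and that in CYP1A1 1.58 ± 0.18. ALDH3A1 (0.25 ± 0.09) lost its call when any library but Saposhnikoviae replicate 2 was left out. AHR itself stood at -0.22 and did not pass in the main fit. It passed as lower with library class as a covariate, only the 6 libraries compared or the offsets. AHRR (0.29) did not pass in the main fit but passed as higher in class 1 libraries alone and with the offsets. UGT1A6 (-0.64) passed as lower only when the fit held just the 6 libraries compared.

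Other genes of drug handling were lower or did not pass. Of 12 P450, conjugation and efflux genes outside the CYP1 family, 6 were lower and 0 higher. ABCC1, which exports glutathione conjugates, was at 219.5, 188 and 163 CPM against 378, 443 and 384 CPM (-1.08 ± 0.08), and the exporters ABCC3 and ABCG2 stood at -0.42 ± 0.08 and -0.39 ± 0.05. Among NRF2 targets, 2 of 22 were higher (9.09%) and 1 was lower (4.55%), against 6.27% and 9.9% of all genes tested. With class 1 libraries alone, 2 were higher and 3 lower. HMOX1, heme oxygenase, stood at 0.35 ± 0.06 and GCLM, a subunit of the glutathione-synthesis enzyme, at 0.28 ± 0.07. TKT (-0.27 ± 0.08) lost its call without Menthae replicate 1 or Saposhnikoviae replicate 2. With the offsets for transcript length and GC content TKT stood at -0.18 and did not pass (edgeR adjusted p = 0.195). The 3 metallothioneins tested, MT1F, MT1X and MT2A, did not pass with all libraries (0.47, -0.03 and 0.36). MT2A passed in class 1 libraries alone, at 0.39 (edgeR adjusted p = 0.0146), and with no filter, the replicate block or only the 6 libraries compared.

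Immediate early genes, which respond to growth factor signalling through ERK, were higher with Menthae in 10 of 19 and lower in 2, with a median of 0.36; class 1 libraries alone gave 13 higher and 2 lower. EGR1 was at 7.01, 3.38 and 3.36 CPM against 1.21, 1.09 and 1.08 CPM, with Menthae replicate 1 above the other Menthae libraries and no overlap between the groups (2.03 ± 0.24). DUSP6, a phosphatase that limits ERK, was at 18.9, 16.7 and 16.99 CPM against 9.78, 10.3 and 9.69 CPM (0.82 ± 0.08). PHLDA1 stood at 0.75 ± 0.06, JUN at 0.51 ± 0.07 and ETV5 at 0.38 ± 0.05. FOSL2 (-0.22) and the phosphatase DUSP5 (-0.35) were lower; FOSL2 lost its call without Menthae replicate 2 or 3 or Saposhnikoviae replicate 1 or 2. Of the NR4A orphan receptors, NR4A1 (-0.67 ± 0.11) and NR4A3 (-0.78 ± 0.13) were lower and NR4A2 (-0.09) did not pass. NR4A1 was below its own low dose in both extracts, at -1.20 with Menthae and -0.68 with Saposhnikoviae on the log2 scale.

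Of 11 chemokines and cytokines tested, 4 were higher and 1 was lower. CXCL2 was at 9.40, 6.00 and 6.37 CPM against 3.18, 3.34 and 3.33 CPM (1.14 ± 0.17), CXCL3 at 3.83, 3.05 and 2.55 against 1.49, 1.25 and 1.41 CPM (1.18 ± 0.20) and CXCL8, interleukin 8, at 4.19, 3.52 and 2.43 against 1.13, 1.77 and 1.38 CPM (1.25 ± 0.29). The monocyte chemokine CCL2 was lower, at 2.82, 2.94 and 3.01 CPM against 5.03, 5.64 and 4.68 CPM (-0.80 ± 0.19). IL11 (0.34 ± 0.12) lost its call in class 1 libraries alone, with the offsets, without any 1 Menthae library and without Saposhnikoviae replicate 2. Of 13 NF-kB regulators, 2 were higher, NFKB2 and RELB (0.21 and 0.38), and 1 lower, TNFAIP2 (-0.33). Both NFKB2 and RELB lost the call without Menthae replicate 1, and NFKB2 also without Saposhnikoviae replicate 2.

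Hypoxia-inducible genes outside glycolysis were mostly lower, 8 of 15, with 1 higher and a median of -0.23. CA12, a membrane carbonic anhydrase, was at 228, 202 and 204 CPM against 403, 439 and 394 CPM (-0.97 ± 0.08), and the oxygen sensor EGLN3 stood at -0.62 ± 0.11. The transcription factor EPAS1 (HIF-2alpha) stood at -0.53 ± 0.08. HIF1A (-0.28 ± 0.10) lost its call whenever any 1 of the 6 libraries was left out. VEGFA, the vascular growth factor, was higher, at 47.7, 36.7 and 39.8 CPM against 33.8, 31.1 and 30.3 CPM (0.38 ± 0.09). Of 19 glycolysis genes, 2 were higher and 2 were lower (10.5% each), against 6.27% and 9.9% of all genes tested. With class 1 libraries alone, 2 were higher and 4 lower. HK2, a regulated hexokinase, was at 4.55, 5.89 and 4.91 CPM against 1.65, 1.21 and 1.68 CPM (1.75 ± 0.18). The glucose carrier SLC2A1 stood at -0.52 ± 0.06 and the constitutive hexokinase HK1 at -0.36 ± 0.06.

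The BCL2 family decides whether mitochondria release the factors that start cell death. Of 13 members tested, 4 were higher and 2 lower. BBC3 (PUMA), which triggers mitochondrial cell death, was at 13.3, 10.1 and 10.6 CPM against 4.63, 4.79 and 4.21 CPM (1.32 ± 0.13). PMAIP1 (NOXA) was at 30.3, 23.7 and 23.0 CPM against 12.3, 9.42 and 11.2 CPM (1.22 ± 0.11), HRK stood at 1.26 ± 0.31, and BCL2L11 (BIM) was lower at -0.23 ± 0.07 but lost its call without Menthae replicate 3. The survival factors MCL1, higher at 0.28 ± 0.08, and BCL2L1 (BCL-XL), lower at -0.25 ± 0.09, both lost the call without Menthae replicate 1 or 3 or Saposhnikoviae replicate 2, and BCL2L1 also without Menthae replicate 2.

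Lists of cell cycle genes had medians near that of all genes tested. Of 20 mitosis and spindle genes, 2 were higher (10%) and 3 lower (15%), with a median of -0.03. Over all genes tested, 6.27% were higher and 9.9% lower. The largest difference in that list was in CENPE, at -0.52 (edgeR adjusted p = 0.00395), which lost its call without Menthae replicate 3. MKI67, a marker of cycling cells, was at 505, 529 and 544 CPM against 634, 817 and 658 CPM (-0.42 ± 0.12), a call lost without Saposhnikoviae replicate 2 or Menthae replicate 1. Of 22 replication and G1/S genes, 0 were higher and 4 lower (18.2%), with a median of -0.02. MCM4 and MCM5, subunits of the replicative helicase, stood at -0.20 ± 0.05 and -0.26 ± 0.06; MCM5 lost its call without Saposhnikoviae replicate 2. CCND1, cyclin D1, stood at -0.15 ± 0.05 and lost its call when Menthae replicate 1 or 3 or Saposhnikoviae replicate 1 or 3 was left out.

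Of 22 autophagy and lysosome genes, 6 were lower and 2 higher. The protease CTSD was at 167, 168 and 155 CPM against 232, 276 and 228 CPM (-0.59 ± 0.08), and the membrane proteins LAMP1 and LAMP2 stood at -0.44 ± 0.07 and -0.57 ± 0.07. The autophagy genes BECN1 (0.23) and NBR1 (0.16) were higher, and NBR1 lost its call without Menthae replicate 3. Of 20 proteasome genes, 1 was higher, PSMC5 (0.26 ± 0.06), and 0 lower, or 5% higher against 6.27% of all genes tested. Of 15 cytosolic heat shock genes, 5 were lower and 0 higher. Among these, BAG3 (-0.40) and DNAJB1 (-0.21) both lost the call without Menthae replicate 1 or 2 or Saposhnikoviae replicate 3. CRYAB, a small heat shock protein, was at 3.00, 2.44 and 2.36 CPM against 5.96, 6.20 and 5.89 CPM (-1.21 ± 0.18). The inducible chaperones HSPA1A and HSPA1B stood at -0.53 and -0.42; they are near-identical, so reads may be split between them.

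Cytosolic ribosomal protein genes stood at a median of 0.25, with 6 of 24 higher and 0 lower. Class 1 libraries alone gave 11 higher, whereas all 6, RPS3, RPL5, RPL18, RPS12, RPLP1 and RPLP0, lost the call when Saposhnikoviae replicate 2 alone was left out. RPS12 was at 429, 444 and 438 CPM against 335, 147 and 304 CPM, with Saposhnikoviae replicate 2 far below the other 5 libraries. Its log2 fold change of 0.74 ± 0.26 was 0.45 in class 1 libraries alone, where it did not pass, and the call was also lost without any 1 Menthae library. This list was above 0 at the low dose as well, at a median of 0.13. The interaction term passed in 0 of its genes and had a median of 0.13, so a change is not excluded. Transcript length moved with the difference at both doses. Over 11415 genes whose mean log2 CPM was 2 or more, the median log2 fold change fell from 0.10 for transcripts of up to 2 kb to -0.09 for those over 12 kb at the high dose, and from 0.09 to -0.09 at the low dose. The median change from low to high dose lay between -0.0050 and 0.01 in every length class, and the length of the ribosomal genes' transcripts was 1.57 kb at the median. With offsets for transcript length and GC content, RPL5 stood at 0.09 and lost its call (edgeR adjusted p = 0.428). RPS3, RPL18, RPS12, RPLP1 and RPLP0 kept theirs. Beyond that fit, the part of transcript length in the smallest differences was not tested.

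Nuclear genes of the respiratory chain were higher in 1 of 20, NDUFV1 (0.25 ± 0.07), and lower in 0, at a median of 0.18 and a low-dose median of 0.08; their transcripts were 2.10 kb long at the median. The share of this list that was higher was 5%, against 6.27% of all genes tested. Class 1 libraries alone gave 4 higher. NDUFV1 lost its call without Menthae replicate 2 or Saposhnikoviae replicate 2. None of the 13 mitochondrially encoded mRNAs passed in the main edgeR fit, at a median of -0.34. Class 1 libraries alone gave 2 lower at a median of -0.19. MT-ND5, at -0.78 in the main fit, passed in class 1 libraries alone, at -0.67 (edgeR adjusted p = 0.0018). MT-ND5 also passed with the replicate block, the class covariate, DESeq2 or the offsets, and without Menthae replicate 1. With no filter or only the 6 libraries compared, MT-ND5, MT-CO1, MT-ND1, MT-CO3 and MT-ATP6 all passed as lower. MT-CO1 was at 13020.0, 12000.0 and 11800.0 CPM against 15020.0, 21140.0 and 15630.0 CPM, with Saposhnikoviae replicate 2 above the other libraries. In the circadian clock list, 1 of 15 was higher, NR1D2 (0.61 ± 0.13), and 1 was lower, PER2 (-0.55 ± 0.12). That is 6.67% each, near the 6.27% higher and 9.9% lower over all genes tested. Of 12 YAP and TEAD genes, 3 were lower, with the receptor kinase AXL at -0.47 ± 0.05, and 1 was higher, AJUBA (0.56 ± 0.13).

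Each extract at the high dose was also compared with its own low dose. From 20 to 500 µg/mL, 2855 genes passed in Menthae (15.5%), 1116 higher (6.07%) and 1739 lower (9.45%). In Saposhnikoviae 13 genes passed (0.0707%), 4 higher (0.0217%) and 9 lower (0.0489%). These 2 changes share no library with each other, but each shares its high-dose libraries with the comparison above. Saposhnikoviae replicate 2 at the high dose is of class 2, whereas the other libraries in these 2 changes are of class 1. Counts of these changes from class 1 libraries alone are not given, and a gene that did not pass is not thereby shown to be unchanged. Over all genes tested the median change was -0.0075 in Menthae and 0.0005 in Saposhnikoviae. In the integrated stress response list 15 genes were higher in Menthae and 0 in Saposhnikoviae, and the medians were 0.79 and -0.05. In the matrix list 19 genes were lower in Menthae and 0 in Saposhnikoviae, with medians of -0.77 and 0.08.

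The interaction term tested the difference between these changes gene by gene. It passed in the direction of Menthae in 12 of 21 stress response genes, 10 of 14 serine and one-carbon genes and 11 of 20 tRNA synthetases. Of 11 transporters, 4 passed in that direction and 1 in the opposite one. Over all genes tested, 1.9% passed in the direction of Menthae and 4.53% in the opposite direction. The term passed in the opposite direction in 18 of 21 matrix genes, 14 of 27 cholesterol genes, 6 of 11 acute phase genes and 3 of 5 mucins. It passed in few members of some other lists, among them 1 of 9 AHR genes and 0 of 8 genes of the liver X receptor list. CHAC1 changed by 2.40 ± 0.16 in Menthae and stood at -0.37 ± 0.17 in Saposhnikoviae, where it did not pass. MUC5AC changed by -2.25 ± 0.23 in Menthae and stood at 0.19 ± 0.22 in Saposhnikoviae. In the vehicle libraries CHAC1 was at 6.46 ± 0.522 CPM (SD, n = 3) and MUC5AC at 309.5 ± 23.6 CPM, but these libraries are of class 2 and of another library number, so extract and library class cannot be told apart there.

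**Figure D5:**
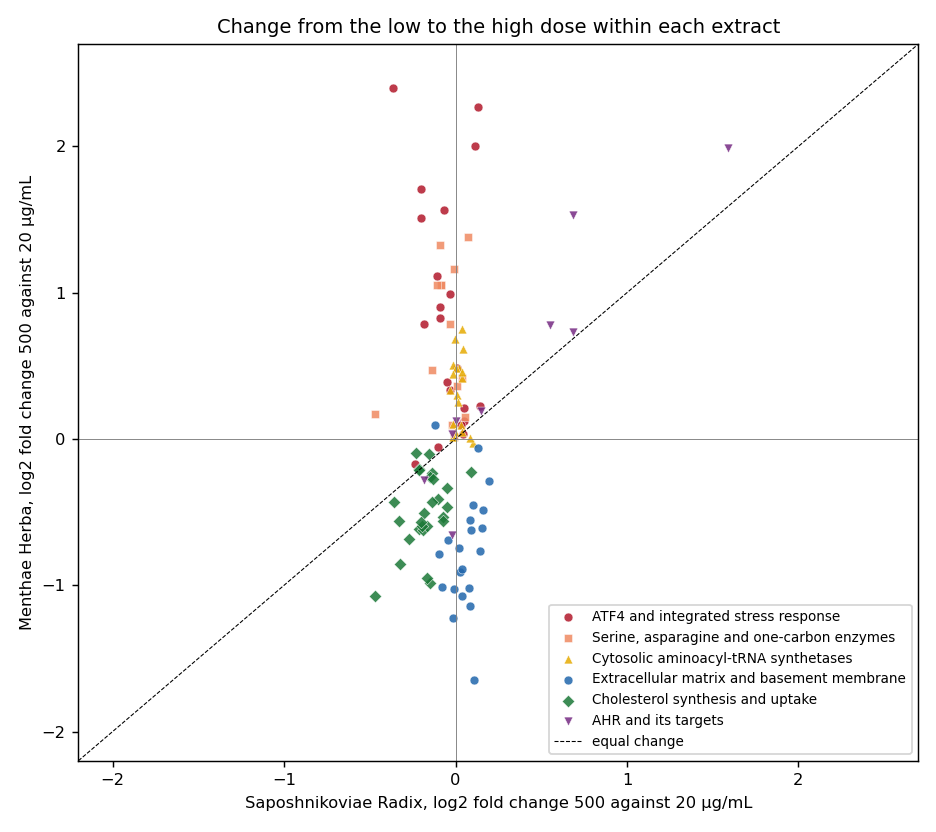
Log2 fold change from 20 to 500 µg/mL within Menthae (vertical axis) and within Saposhnikoviae (horizontal axis) for the tested genes of 6 lists; the dashed line marks equal change. Stress response, serine and tRNA synthetase genes spread upward and matrix genes downward near 0 on the horizontal axis, whereas CYP1A1, CYP1B1, TIPARP and AHRR of the AHR list lie to the right.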

How the data were processed

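The series deposited 1 table of expected counts per Ensembl gene (60675 genes, 60 libraries); per the submitters' processing notes the authors' tools were RSEM 1.3.3, STAR 2.7.3a, Trim Galore 0.6.5 and FastQC 0.11.9, and the build was GRCh38. The sources used here give no annotation release, strand setting or filter. Expected counts were rounded to whole numbers. Library totals over the series ran from 17113963 to 33363661, and depth limits the precision of genes of few CPM. Gene names and coordinates came from GENCODE 29.

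Differences were tested with edgeR 4.0.16 (R 4.3.3, limma 3.58.1) by TMM normalisation, filterByExpr (18396 genes kept) and a two-sided quasi-likelihood F-test over 57 libraries in 22 groups of 2 or 3 with 35 residual degrees of freedom, Benjamini-Hochberg adjusted over all genes at 0.05. Standard errors were taken as the size of the log2 fold change over the root of its F value. The members and the gene lists were chosen with earlier results of these data known, so counts over lists are descriptions. Genes were named by rule: the 12 highest and 12 lowest log2 fold changes among genes whose mean log2 CPM was 2 or more, called in the same direction with class 1 libraries alone and without overlap between groups; up to 6 members of each list with the smallest adjusted p, those called against the list's majority and the list's regulators; and the 6 highest and 6 lowest interaction terms. Some genes that met the rule are not reported here. On simulated counts without any library class, the fit recovered 41 of 50 genes changed by 1.5-fold and 50 of 50 changed by 2-fold. The changed genes were drawn only from those with a mean CPM above 2, so recovery of genes of fewer CPM was not tested. Of the 18396 genes simulated, 6 unchanged ones were called. Alternatives were DESeq2 1.42.0, its size factors, no filter, fewer libraries, a class covariate, a replicate block and, added after seeing the data, offsets for transcript length and GC content.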

Additional observations from a re-analysis of the deposited data

Results flagged for a closer look

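The 2 extracts differed in their change from the low to the high dose by a test of that difference, the interaction term in edgeR with an adjusted p under 0.05. The 6 highest and 6 lowest terms among genes that met the rule for naming and are reported here, and that of TIPARP, follow; other named genes passed the same test. The term, Menthae change minus Saposhnikoviae change on the log2 scale, was 2.77 for CHAC1, 2.30 for ADM2, 2.13 for STC2, 1.91 for DDIT3, 1.89 for NIBAN1 and 1.71 for TRIB3. It was -2.44 for MUC5AC, -1.99 for TPPP3, -1.76 for HSPG2, -1.75 for FRAS1, -1.70 for FBN2 and -1.58 for C3. For TIPARP, added after its value was seen, where both extracts raised the gene, it was 0.85. Each group held 3 libraries, too few for the check on single samples far from the rest of their group.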

How the results depend on the processing

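The count of genes that differed at the high dose was 2975. It lay between 2768 and 3947 under another scaling, no filter, DESeq2, a class covariate, class 1 libraries alone, only the 6 libraries compared, and the added length and GC offsets, and between 2115 and 2702 with 1 library left out. A threshold of 2-fold or more in addition left 273. At the low dose the count was 0 in edgeR, 116 with no filter on low counts and 1 with the DESeq2 Wald test, and between 0 and 0 with 1 library left out. The count for the change from low to high dose was 1182, or 1982 with class 1 libraries only and 166 at 2-fold or more; it lay between 989 and 1685 under the other alternatives named above, and between 945 and 1180 with 1 library left out. Why the class 1 fit called more genes was not tested. Over all genes tested, correlations of same-numbered deviations lay between -0.0422 and 0.0754, which cannot exclude pairing by replicate number in some genes. With the replicate block the counts were 3690, 0 and 1615, against 2975, 0 and 1182 without it.

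Of 184 named genes past the threshold, 45 lost the call under at least 1 alternative and 0 of 3539 recomputed values reversed. Of 108 recomputed list medians, 15 moved by more than the spread between libraries; among them were chemokines, at 0.18 with class 1 libraries in place of 0.34, and metallothioneins, at 0.24 with the offsets in place of 0.36. The airway mucin median, at -1.28 with class 1 libraries in place of -1.54, moved within that spread. Depth limits genes of few CPM such as MUC16, CXCL8 and HRK.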

Other observations

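Several genes among the 12 highest with Menthae lie outside the lists described above. GREM1, a secreted antagonist of bone morphogenetic proteins, was at 25.0, 22.7 and 22.5 CPM with Menthae. With Saposhnikoviae it was at 5.71, 7.00 and 7.17 CPM (1.82 ± 0.12). ADM2, a peptide hormone of the calcitonin family, was at 8.64, 6.21 and 5.95 CPM against 1.33, 1.85 and 1.58 CPM (2.12 ± 0.16). ULBP1, a ligand of the natural killer cell receptor NKG2D, was at 7.44, 6.21 and 5.68 CPM against 2.09, 2.50 and 2.83 CPM (1.38 ± 0.16). The neuronal kinesin KIF1A was at 6.90, 5.75 and 5.52 CPM against 2.37, 2.25 and 1.85 CPM (1.49 ± 0.16). Class 1 libraries alone, in which the rule for naming required the same direction, gave 1.85, 2.24, 1.37 and 1.52.

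Menthae replicate 1 was the library with the highest level of CHAC1, DDIT3, STC2, SESN2, EGR1 and HERPUD1 among the 6, and also the Menthae library nearest to the Saposhnikoviae libraries for HSPG2, FN1, LAMC1 and COL4A2. These genes were chosen after their values were seen.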
